A study of Homo sapiens with 12 samples.

Results

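Long non-coding RNAs (lncRNAs) were followed in human hepatoma cells in which ARD1 had been lowered. The gene is listed as NAA10 and encodes the enzyme of NatA, which adds acetyl groups to the N termini of nascent proteins. The set was defined by name and level: genes whose symbol starts with LINC or SNHG, ends in -AS1, or is MALAT1, NEAT1 or OLMALINC, with a mean of at least 2 CPM (count scaled to a library total of 1e6) over the 6 libraries of at least one cell line. Of 28704 genes in the count tables, 2536 carried such a symbol and 516 met the level. By name, 280 were -AS1 genes, 214 were LINC genes, 19 were SNHG genes and 3 were the single names. Of the 507 members found in GENCODE v29, 8 are typed there as protein-coding, SNHG32, LINC02693 and LINC03040 among them, and they were kept because the set goes by name. The level had been met by 373 members in Hep-3B and by 381 in Huh-7, with 238 in both, 135 in Hep-3B alone and 143 in Huh-7 alone. The nearest genes inside the limit were LGALS8-AS1 (2.001 CPM in its higher table), LINC02405 (2.012) and LINC01589 (2.015), and the nearest outside it were SPEN-AS1 (1.988), BCDIN3D-AS1 (1.98) and PRSS23-AS1 (1.98). Levels therefore chose the members and are given as a description only. The rule holds no condition on the effect of the siRNA. It was set with earlier results of these data known, however, and it lists OLMALINC by name.

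RNA-seq libraries were compared in 4 groups of 3: Hep-3B given an siRNA against ARD1 (siARD1), Hep-3B given a negative-control siRNA, Huh-7 given siARD1, and Huh-7 given the negative-control siRNA. Both are established lines labelled as hepatoma cells, the labels give no time after transfection, and nothing in them tells if the replicates came from separate cultures, so that p-values measure only the spread between these libraries. Total counts ran from 17327615 to 25960237 per library. NAA10 stood at 10.9, 15.6 and 14.4 CPM after siARD1 against 48.4, 58.7 and 58.7 CPM in control in Hep-3B, and at 13.2, 9.86 and 9.995 CPM after siARD1 against 165.5, 155.5 and 200.2 CPM in control in Huh-7. Both contrasts passed edgeR's quasi-likelihood test (log2 fold change -2.01 and -3.98, adjusted p = 1.36e-07 and 1.66e-08). The depth of the fall differed, with 24.9% of the control level left in Hep-3B and 6.34% in Huh-7. The difference in log2 fold change, Hep-3B less Huh-7, was 1.995 (edgeR adjusted p = 1.56e-05), so the lines are not compared at an equal knockdown. The libraries labelled Hep-3B held at most 1.97 CPM of AFP and 6.20 CPM of ALB, genes for which that line is known, and Huh-7 held at least 3182 and 10690 CPM, so the label of the first line is in doubt and the line is named here by its label only. Levels per library, here and below, are CPM scaled by TMM factors. Means over the 6 libraries, and the ranks, medians and level groups built on them, are CPM without these factors. A gene is called higher or lower after siARD1 where the adjusted p (Benjamini and Hochberg, over all tested genes) is under 0.05.

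Long non-coding RNAs are transcripts that are not translated into a known protein. Some act where they are made, on neighbouring genes or chromatin, and others in the nucleoplasm or cytoplasm, whereas for many no function is known. MALAT1 is a nuclear RNA found at nuclear speckles, and NEAT1 is the scaffold on which paraspeckle bodies are built. SNHG genes carry small nucleolar RNAs (snoRNAs), the guides of ribosomal RNA modification, in their introns, and their spliced transcripts are often short-lived because translation of their small open reading frames exposes them to nonsense-mediated decay. Antisense genes named -AS1 lie opposite a coding gene, frequently with a start close to that gene's own start. OLMALINC lies beside SCD, which encodes the stearoyl-CoA desaturase that makes monounsaturated fatty acids.

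Start sequences are shown for the members on which the results turn most, taken from RefSeq (GRCh38.p14), in which 359 of 515 member symbols matched, with 430 promoter entries between them. OLMALINC and SCD are shown from 250 bases before the annotated start to 50 bases after it, because these neighbours fell together in both lines. Capitals mark a match to the antioxidant element (TGACNNNGC, searched on both strands), which begins 123 bases before the OLMALINC start.
OLMALINC, chr10:100373326-100373625, plus strand: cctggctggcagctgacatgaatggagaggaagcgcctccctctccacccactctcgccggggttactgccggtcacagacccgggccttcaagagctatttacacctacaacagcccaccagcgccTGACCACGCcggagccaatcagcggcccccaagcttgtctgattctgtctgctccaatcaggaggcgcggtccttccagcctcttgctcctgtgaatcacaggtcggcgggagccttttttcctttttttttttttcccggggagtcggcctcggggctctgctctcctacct
SCD, chr10:100346983-100347282, plus strand: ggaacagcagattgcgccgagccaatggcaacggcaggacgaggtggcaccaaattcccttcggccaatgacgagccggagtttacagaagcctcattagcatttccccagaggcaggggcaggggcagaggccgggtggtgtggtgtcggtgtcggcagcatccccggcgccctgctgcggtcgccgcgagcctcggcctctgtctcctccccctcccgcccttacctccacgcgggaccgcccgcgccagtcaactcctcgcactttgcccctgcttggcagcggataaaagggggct
This element stood in 18.8% of member promoter entries and in 13.3% of all 35116 promoters of the same length. The sterol regulatory element (TCACNCCAC), the amino acid response element (TGATGNAA) and the E-box (CACGTG) had no match in either window, which says only that these letters are not there. For SNHG genes the first 30 transcribed bases are given, since snoRNA host genes are known for starts made of a C and a run of pyrimidines, with that run in capitals.
SNHG4, chr5:139274101-139274130, plus strand: CCCTTTCCCCTCCggcctctgccggtgctg
SNHG12, chr1:28581844-28581873, minus strand: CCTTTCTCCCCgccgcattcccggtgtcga
SNHG32, chr6:31834916-31834945, plus strand: CTTTTTgcgaagtgggctcgtgggttggca
SNHG5, chr6:85678704-85678733, minus strand: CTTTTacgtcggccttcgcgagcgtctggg
SNHG17, chr20:38435299-38435328, minus strand: agtccttcgccgtccctcgccgtccttcgc
SNHG3, chr1:28505943-28505972, plus strand: gattctctaactgcgcatgcttctgcgcac
A C at the annotated start followed by at least 4 pyrimidines was found in 4 of 17 SNHG entries (23.5%), against 11 of 24 entries of other snoRNA host genes (45.8%), 3.95% of all member entries and 4.07% of all promoters. Of the starts shown, SNHG17 and SNHG3 have no such run. The first SNHG3 base shown, from RefSeq, is the GENCODE v29 start of its coding neighbour RCC1, not the GENCODE start of SNHG3 used below. Annotated starts can differ from the starts used in these cells.

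Together the members made up a small share of the counts. They held 0.444, 0.449 and 0.460% of counts after siARD1 against 0.452, 0.477 and 0.451% in control in Hep-3B, and 0.454, 0.477 and 0.448% after siARD1 against 0.523, 0.504 and 0.506% in control in Huh-7. The groups overlapped in Hep-3B, and in Huh-7 every siARD1 library lay below every control library. Few members were abundant: the median of those at 2 CPM or more was 4.73 CPM in Hep-3B and 5.21 CPM in Huh-7, and 41 and 42 members reached 20 CPM. SNHG29 led in Hep-3B with a mean of 422 CPM over the 6 libraries, followed by SNHG14 (275), LINC00942 (118), FGD5-AS1 (114) and SNHG1 (110.5). SNHG14 is the long host transcript of the imprinted Prader-Willi region. In Huh-7 the leading members were LINC00261 (322 CPM), an endodermal lncRNA beside FOXA2, then SNHG29 (297), FGD5-AS1 (248.5), NEAT1 (243) and OIP5-AS1 (128).

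Expressed per kilobase of exon, which is the scale on which genes can be compared, SNHG29 led in both lines with 112 CPM per kb in Hep-3B and 78.9 in Huh-7. LINC00942 (53.3) and SNHG6 (41.2) came next in Hep-3B, and LINC00261 (58.0) and LINC01419 (51.8) in Huh-7. The rule admits a gene on its level in a single line, so members nearly absent from the other line follow from the rule itself. Under 0.1 CPM in Huh-7 were 35 members of the Hep-3B set, and 39 of the Huh-7 set were under 0.1 CPM in Hep-3B. No share over all genes was taken beside these counts. SNHG14 was one of the most unequal, at 287, 306 and 296 CPM after siARD1 and 242, 268 and 253 CPM in control in Hep-3B, while its highest Huh-7 library reached 0.260 CPM. LINC01419 and LINC02432 were the reverse, with at most 0.0771 and 0.174 CPM in any Hep-3B library. MALAT1, in many tissues among the most abundant nuclear RNAs, had few counts here, at 2.41 to 8.43 CPM over the 12 libraries. How its reads were counted is not given in the sources used here, and the cause of the low values was not tested.

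The first comparison asked which lncRNAs differed after siARD1 in Hep-3B. Of the 516 members 459 passed the filter on low counts, 42 were called higher and 68 lower, or 9.15 and 14.8% of those tested. Without the first or without the third siARD1 library 25 were called higher. Among all 15762 tested genes 32.2% were called, 16.8% higher and 15.3% lower. The members' median log2 fold change was -0.15, against -0.01 over all tested genes. By class, LINC genes were called higher in 20 and lower in 41 of 181 tested (median -0.19), and -AS1 genes in 19 and 25 of 256 (median -0.11). Of the 373 members at 2 CPM or more in this line, all of which were tested, 40 were higher and 59 lower. In bulk libraries such as these, fewer cells of a type and less RNA per cell cannot be told apart. Of hepatocyte markers 5 were lower and 0 higher of 7 tested in Hep-3B, with a summed level of 215.6 to 231.8 CPM after siARD1 against 405.5 to 490.1 CPM in control, and 3 were lower and 0 higher of 9 in Huh-7 (24190 to 27860 CPM after siARD1 against 30040 to 31190 CPM in control). FGB made up most of the Hep-3B sum (mean 137.2 CPM after siARD1 against 324.8 CPM in control). APOB and HNF4A were not called there. ALB, the most abundant marker in Huh-7, was not called in that line (edgeR adjusted p = 0.104). Of fibroblast markers 1 was higher and 0 lower of 5 in Hep-3B, and 0 higher and 3 lower of 6 in Huh-7. Endothelial markers gave 1 higher and 1 lower of 2 in Hep-3B, and 0 and 0 of 1 in Huh-7. The part of these markers in the lncRNA results was not tested.

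In Huh-7 the calls leaned further towards lower levels. Of 440 members tested, 41 were called higher and 99 lower (9.32 and 22.5%), with a median log2 fold change of -0.16. Among all 15919 tested genes 40.1% were called, 21.2% higher and 18.9% lower, with a median of -0.01. The -AS1 genes were called higher in 18 and lower in 63 of 252 (median -0.17), and LINC genes in 14 and 34 of 167 (median -0.16). Of the 381 members at 2 CPM or more in Huh-7, 40 were higher and 87 lower. The split depends on scaling: with upper-quartile factors 36 members were higher and 77 lower in Hep-3B and 34 and 124 in Huh-7. Under the same factors the higher share of all called genes went to 44.9% in Hep-3B and 39.7% in Huh-7, against 52.3 and 52.9% with TMM factors, and that of called members to 31.9 and 21.5%, against 38.2 and 29.3%.

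Members were also set beside all tested genes of like level. In Hep-3B at 2 to under 5 CPM, 12 members were higher and 24 lower of 194, or 18.6% called, against 20.6% of all tested genes (10.1% higher, 10.5% lower). At 5 to under 20 CPM, 19 were higher and 27 lower of 138 (33.3% called), against 31.8% of all tested genes (16.0% higher, 15.8% lower). At 20 CPM or more, 9 were higher and 8 lower of 41 (41.5% called), against 44.0% (23.2% higher, 20.8% lower). The total shares called in Hep-3B thus lay near those of all genes. Below 20 CPM the members' split leaned more to lower levels. It was 6.19% higher and 12.4% lower at 2 to under 5 CPM, and 13.8 and 19.6% at 5 to under 20 CPM. In Huh-7 at 2 to under 5 CPM, 9 were higher and 29 lower of 180 (21.1% called), against 30.7% (7.43% higher, 23.3% lower). At 5 to under 20 CPM there, 19 were higher and 45 lower of 159 (40.3% called), against 42.2% (18.3% higher, 23.9% lower). At 20 CPM or more in Huh-7, 12 were higher and 13 lower of 42 (59.5% called), against 50.3% (32.3% higher, 18.0% lower). The siARD1 and control libraries did not overlap for 173 of 459 tested members in Hep-3B, against 45% of all tested genes. In Huh-7 they did not overlap for 177 of 440, against 50% of all tested genes.

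**Figure D1:**
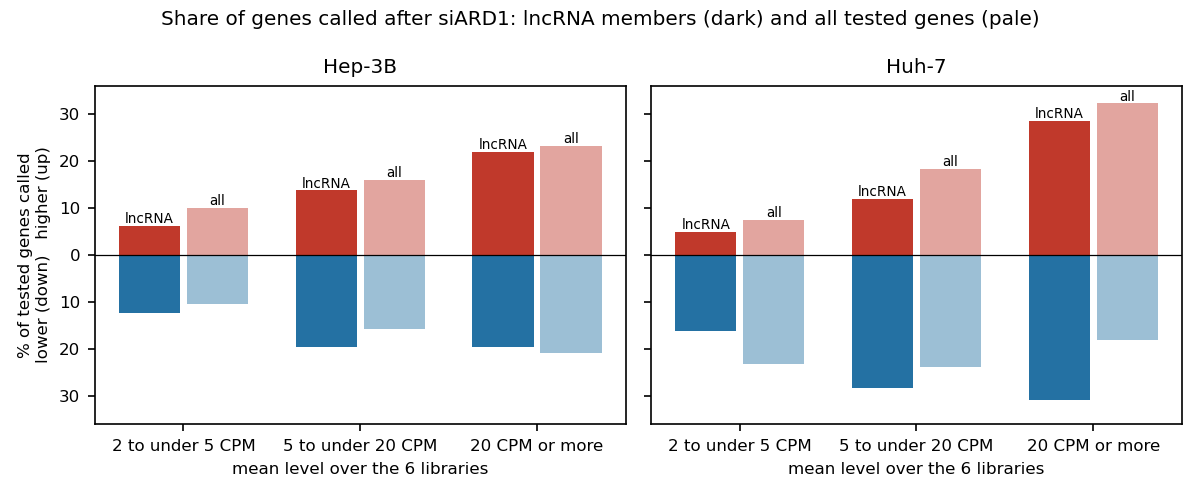
Percentage of tested genes called higher (up, red) and lower (down, blue) after siARD1 in each line, for lncRNA members (dark bars) and all tested genes (pale bars), by mean level over the 6 libraries. The dark and pale bars are close in Hep-3B at 20 CPM or more (21.95 and 23.2% higher), and in Huh-7 the lower share of members at 20 CPM or more (31.0%) exceeds that of all genes (18.0%).

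OLMALINC (ENSG00000235823, GRCh38 chromosome 10, 100373513 to 100454043, plus strand, a lincRNA in GENCODE v29) fell in both lines. It stood at 19.2, 17.1 and 17.2 CPM after siARD1 in Hep-3B, against 34.9, 29.1 and 28.9 CPM in control. In Huh-7 the values were 35.6, 34.7 and 31.1 CPM after siARD1, against 112.9, 96.3 and 98.04 CPM in control. In neither line did the groups overlap. The log2 fold change was -0.80 (SE 0.10, edgeR adjusted p = 2.13e-05) in Hep-3B, or 57.4% of the control level, and -1.60 (SE 0.07, adjusted p = 4.15e-13) in Huh-7, or 33.0% of it. The fall was larger in Huh-7: the interaction, Hep-3B less Huh-7, was 0.81 (SE 0.12, adjusted p = 1.11e-05).

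The nearest coding gene to OLMALINC is SCD, on the same strand, with its start 26389 bp before that of OLMALINC and no overlap between the genes. SCD also fell in both lines, to 956.5, 879 and 893 CPM after siARD1 in Hep-3B, against 1921, 1858 and 1836 CPM in control. For Huh-7 it gave 1563, 1431 and 1556 CPM after siARD1, against 1961, 2128 and 2090 CPM in control. Its log2 fold change was -1.04 (edgeR adjusted p = 1.05e-08) in Hep-3B and -0.44 (adjusted p = 2.44e-06) in Huh-7, against -0.80 and -1.60 for OLMALINC. On the far side of SCD from OLMALINC, BLOC1S2, a subunit of the lysosome-related organelle complex, was higher in Hep-3B (0.49, adjusted p = 0.0063) and was not called in Huh-7 (0.12, adjusted p = 0.221). CWF19L1, next to BLOC1S2, was lower in Hep-3B (-0.29, adjusted p = 0.0448) and was not called in Huh-7 (0.10, adjusted p = 0.231). Among all tested genes at 20 CPM or more, 20.8% were lower and 23.2% higher in Hep-3B, and 18.0 and 32.3% in Huh-7. Of the list of 21 sterol and fatty acid genes to which SCD belongs, 17 were lower and 0 higher in Hep-3B and 14 were lower and 0 higher in Huh-7. Examples are SREBF1, the sterol-responsive transcription factor (-1.17 and -0.56), INSIG1, which retains it in the endoplasmic reticulum (-0.74 and -0.73), and FADS2, another desaturase (-0.87 and -0.40).

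**Figure D2:**
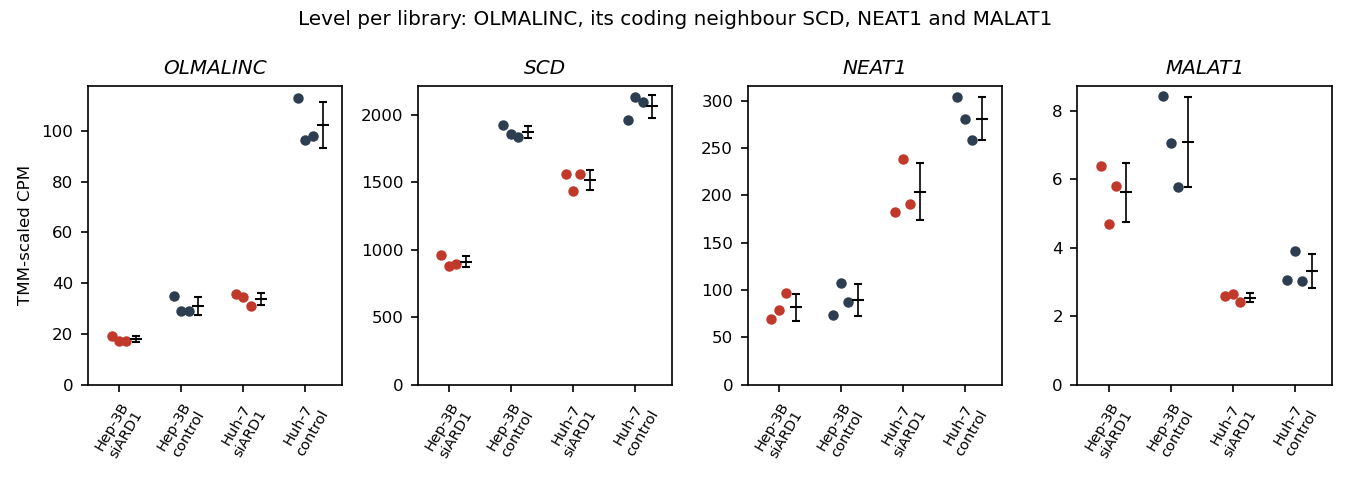
TMM-scaled CPM of OLMALINC, SCD, NEAT1 and MALAT1 in each of the 12 libraries (points), with the mean and SD of each group of 3 (black bars), siARD1 left of control in each line. OLMALINC and SCD lie lower after siARD1 in both lines with no overlap, NEAT1 only separates in Huh-7, and MALAT1 stays under 9 CPM throughout.

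NEAT1 (chromosome 11, 65422774 to 65445540, plus strand) was called in Huh-7. Its libraries held 182.5, 238 and 191 CPM after siARD1 there, against 304, 280 and 258.5 CPM in control, without overlap. The log2 fold change was -0.46 (SE 0.10, edgeR adjusted p = 0.00427), and it did not pass when all 12 libraries were fitted together (adjusted p = 0.0546). In Hep-3B NEAT1 had 69.0, 78.8 and 96.8 CPM after siARD1, against 73.1, 107 and 87.2 CPM in control, and the groups overlapped (-0.12, adjusted p = 0.636). The test of the difference between the lines did not pass (0.36, adjusted p = 0.302). Its nearest coding gene FRMD8 was higher in Huh-7 (0.30, adjusted p = 0.00176), opposite to NEAT1. Among all tested genes at 20 CPM or more, 32.3% were higher and 18.0% lower in Huh-7, and 23.2 and 20.8% in Hep-3B. Of 17 tested entries for proteins of paraspeckles, 10 were higher and 1 lower in Huh-7 (median 0.18), among them PSPC1 (0.44), NONO (0.32) and SFPQ (0.31), which bind NEAT1. In Hep-3B 3 were higher and 5 lower of 18 (median -0.00), and PSPC1 (-0.42), NONO (-0.29) and SFPQ (-0.21) were all lower.

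MALAT1 was not called in either line. It stood at 6.38, 4.69 and 5.82 CPM after siARD1 in Hep-3B against 8.43, 7.07 and 5.78 CPM in control (log2 fold change -0.34, edgeR adjusted p = 0.138). In Huh-7 it had 2.58, 2.65 and 2.41 CPM after siARD1 against 3.05, 3.91 and 3.02 CPM in control (-0.39, adjusted p = 0.135). The values lay lower after siARD1 in Huh-7 without overlap, and the difference did not pass the test. Of its bases, 396 overlap exons of a gene on the opposite strand, and how reads there were counted is not given in the sources used here. Of 13 proteins of nuclear speckles, where MALAT1 collects, 8 were lower and 1 higher in Hep-3B (median -0.42) and 8 were higher and 0 lower in Huh-7 (median 0.17). The shares over all tested genes at 20 CPM or more were 20.8% lower and 23.2% higher in Hep-3B, and 18.0 and 32.3% in Huh-7. SRSF3 (-0.50 and 0.40) and SRSF7 (-0.46 and 0.47), both splicing factors, were lower in Hep-3B and higher in Huh-7.

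The SNHG genes were tested in both lines. In Huh-7, 9 of 18 tested were higher after siARD1 and 0 lower, with a median log2 fold change of 0.22, where 21.2% of all tested genes and 32.3% of those at 20 CPM or more were higher. In Hep-3B 3 of 19 were higher and 1 lower, with a median of -0.12, a share near the 16.8% of all tested genes that were higher there. The test of the difference passed for 7 of 19 (36.8%), SNHG3, SNHG4, SNHG7, SNHG15, SNHG16, SNHG17 and SNHG20, each with the higher value in Huh-7. Of all 17122 genes tested it passed for 31.4%, and for 15.2% with the higher value in Huh-7. Summed, the SNHG genes gave 778, 803 and 819 CPM after siARD1 against 663, 689 and 682 CPM in control in Huh-7, and 1164, 1096 and 1250 CPM after siARD1 against 1125, 1149 and 1131 CPM in control in Hep-3B. The Huh-7 calls of SNHG7, SNHG16 and SNHG29 did not hold in every fit. All were lost with upper-quartile factors (edgeR adjusted p = 0.196, 0.0539 and 0.227), with the value still positive. SNHG7 (0.19) was also lost with RLE factors (adjusted p = 0.0508), without a filter (0.0565), with the filter at 1 CPM (0.0584), with DESeq2 (0.0849), in the fit of all 12 libraries (0.121), and without the second or the third siARD1 or the second or the third control library (up to 0.189). SNHG29 (0.14) was also lost in the fit of all 12 libraries (0.117) and without the third siARD1 library or any 1 control library (up to 0.0957), and SNHG16 (0.24) without the third control library (0.103).

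SNHG17 stood at 32.4, 36.5 and 37.3 CPM after siARD1 in Huh-7, against 18.8, 22.3 and 18.9 CPM in control (log2 fold change 0.82, edgeR adjusted p = 1.88e-07). In Hep-3B its libraries held 17.8, 14.7 and 20.5 CPM after siARD1, against 19.1, 21.98 and 22.5 CPM in control (-0.26, adjusted p = 0.105). The groups were apart in Huh-7 and overlapped in Hep-3B, and the difference was -1.07 (adjusted p = 5.11e-06). SNHG15, a short-lived transcript, had 40.8, 45.8 and 46.7 CPM after siARD1 in Huh-7, against 27.3, 29.7 and 28.4 CPM in control (0.64, adjusted p = 7.03e-07). SNHG4, whose start is printed above, had 13.1, 16.97 and 14.9 CPM after siARD1 in Huh-7, against 9.13, 8.09 and 7.80 CPM in control (0.85, adjusted p = 7.63e-06). It overlaps MATR3 on the same strand, so the split of reads between them is uncertain. SNHG20 had the largest log2 fold change of the SNHG genes called (0.92, adjusted p = 0.00441), at a low 2.65 to 3.62 CPM after siARD1 against 1.13 to 1.86 CPM in control.

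SNHG3 was called in opposite directions. It had 29.6, 32.0 and 36.2 CPM after siARD1 in Huh-7, against 21.7, 23.3 and 24.5 CPM in control (0.49, edgeR adjusted p = 9.84e-05). In Hep-3B there were 27.9, 20.9 and 29.4 CPM after siARD1, against 33.6, 32.6 and 34.7 CPM in control (-0.37, adjusted p = 0.0161). The Hep-3B call was lost without the second siARD1 library (-0.23, adjusted p = 0.0681) or without the third control library (-0.34, adjusted p = 0.0586). SNHG3 begins 37 bp from RCC1, the exchange factor of the GTPase Ran, on the same strand, and the genes overlap, so the split of reads between them is uncertain. RCC1 rose in Huh-7 (0.57, adjusted p = 5.98e-08) and was not called in Hep-3B (0.05, adjusted p = 0.605).

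SNHG1 was the family member called higher in both lines. Its levels were 123, 105 and 146 CPM after siARD1 in Hep-3B against 86.9, 102.5 and 101 CPM in control, and 133, 140 and 130 CPM after siARD1 in Huh-7 against 106, 111 and 116 CPM in control. The log2 fold changes were 0.36 (edgeR adjusted p = 0.0275) and 0.28 (adjusted p = 0.000308), and the Hep-3B call was lost without the first or the third siARD1 or the first or the third control library, the lowest value being 0.23 without the third siARD1 library (adjusted p = 0.0632). SNHG1 starts 188 bp from SLC3A2, on the opposite strand. SLC3A2 encodes the heavy chain that amino acid transporters share, including the cystine transporter. It was higher in both lines as well, by 0.39 (adjusted p = 0.00122) in Hep-3B and 1.24 (adjusted p = 1.7e-07) in Huh-7. The other calls in Hep-3B were SNHG32 (0.42, adjusted p = 0.00767, and adjusted p = 0.0596 without the third siARD1 library) and SNHG14 (0.22, adjusted p = 0.00911).

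**Figure D3:**
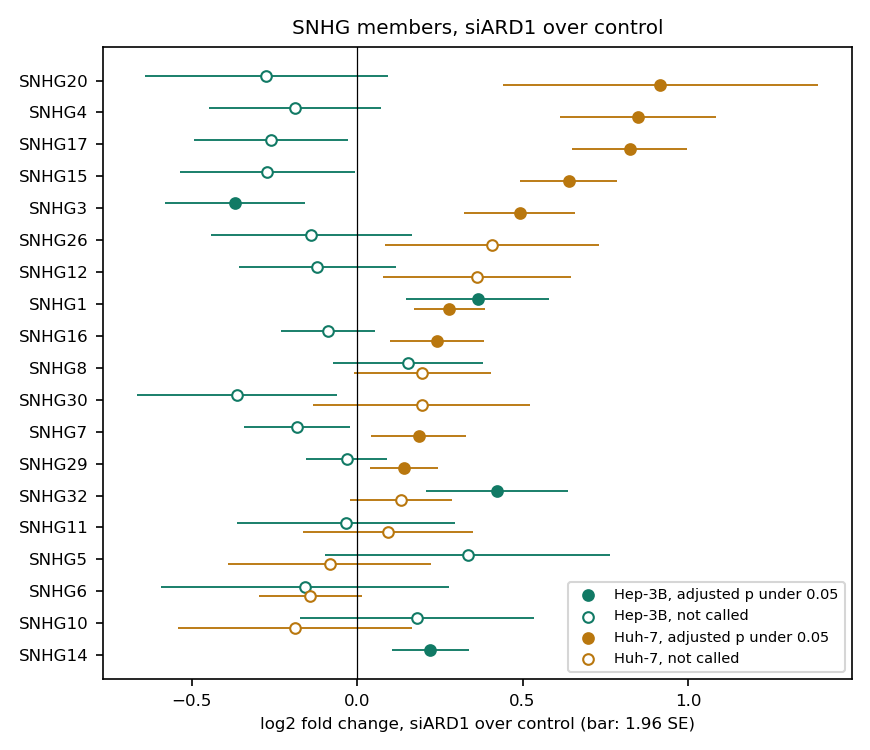
Log2 fold change of each SNHG member, siARD1 over control, in Hep-3B (green) and Huh-7 (ochre), with bars for the 95% interval; filled points passed the adjusted p of 0.05. In Huh-7 all 9 filled points lie right of 0 (0.14 to 0.92), while in Hep-3B 3 lie right of 0 and SNHG3 lies left of it (-0.37).

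Other genes that carry snoRNAs were taken from a separate list. Of 25 snoRNA host genes outside the SNHG names, 13 were higher and 0 lower in Huh-7 (median 0.14), and 2 were higher and 11 lower in Hep-3B (median -0.13). Among all tested genes at 20 CPM or more, 32.3% were higher and 18.0% lower in Huh-7, and 23.2% higher and 20.8% lower in Hep-3B, and these shares are the background for the lists of this paragraph. GAS5, a non-coding host, was higher in both (0.35 in Hep-3B, 0.30 in Huh-7). ZFAS1, another non-coding host, was higher in Huh-7 (0.58, adjusted p = 3.02e-06) and was not called in Hep-3B (0.13, adjusted p = 0.24). Proteins that assemble with snoRNAs were higher in 5 and lower in 0 of 8 in Huh-7, with NOP56 (0.57), NOP58 (0.55) and DKC1 (0.60) among them, and higher in 0 and lower in 1 in Hep-3B. Factors of nonsense-mediated decay, the pathway that removes many SNHG transcripts, were higher in 8 and lower in 0 of 14 in Huh-7 and higher in 1 and lower in 3 in Hep-3B. SMG8 was lower in Hep-3B (-0.41) and higher in Huh-7 (0.75).

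Among members at 2 CPM or more in Hep-3B the largest fall was in PRKAR2A-AS1, antisense to a regulatory subunit gene of protein kinase A. It had 1.90, 1.91 and 1.70 CPM after siARD1 against 4.22, 3.94 and 3.98 CPM in control (-1.14, edgeR adjusted p = 0.000345). The gene also fell in Huh-7, with 2.22, 2.28 and 1.26 CPM after siARD1 against 4.23, 4.77 and 3.64 CPM in control (-1.13, adjusted p = 0.000412). Neither line had overlapping groups, and PRKAR2A itself was slightly higher in Hep-3B (0.19, adjusted p = 0.0493) and was not called in Huh-7 (0.12, adjusted p = 0.0619). The other 9 falls that the naming rule takes in Hep-3B ran from -0.86 to -1.02, in LINC01269, LINC01285, TM4SF1-AS1, LINC00654, LINC01503, LINC00939, VAC14-AS1, LINC03040 and LINC02893. Of the members over 100 CPM, LINC00942 fell to 89.7, 90.3 and 86.2 CPM after siARD1 against 121, 156 and 167 CPM in control (-0.74, adjusted p = 9.63e-05). It was under 1 CPM in every Huh-7 library.

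Rises in Hep-3B were led in size by LINC00622, with 4.03, 4.38 and 4.16 CPM after siARD1 against 1.82, 2.15 and 1.31 CPM in control (1.26, edgeR adjusted p = 0.000333). LINC00662 was far more abundant. It stood at 98.9, 97.3 and 99.1 CPM after siARD1 against 55.6, 53.5 and 53.0 CPM in control (0.86, SE 0.06, adjusted p = 2.49e-07), with the groups far apart. In Huh-7 the same gene had 13.3, 13.3 and 10.9 CPM after siARD1 against 13.8, 11.9 and 13.6 CPM in control, with overlap (-0.06, adjusted p = 0.678), and the difference between the lines passed (0.95, adjusted p = 6.03e-07). The remaining rises named were DIAPH2-AS1 (0.97), LINC00656 (0.95), LINC02535 (0.92), UNC5B-AS1 (0.89), LINC02300 (0.87), RDH10-AS1 (0.86), LINC01239 (0.82) and LINC00888 (0.72). The call of LINC02300 was lost without the third siARD1 library (0.75, adjusted p = 0.0955), the first control library (0.69, adjusted p = 0.0849) or the third control library (0.67, adjusted p = 0.107). Of these rises, DIAPH2-AS1, LINC00656, LINC02300 and UNC5B-AS1 were at or under 0.131 CPM in every Huh-7 library.

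In Huh-7 the largest fall among members at 2 CPM or more was in LINC00173, with 0.671, 0.727 and 0.680 CPM after siARD1 against 3.16, 3.82 and 2.89 CPM in control (-2.24, edgeR adjusted p = 8.05e-07). It fell less in Hep-3B, to 5.003, 4.47 and 4.01 CPM after siARD1 against 6.95, 7.48 and 7.08 CPM in control (-0.68, adjusted p = 0.0026), and the difference passed (1.57, adjusted p = 0.000154). Its neighbour MAP1LC3B2 was called in neither line. LINC02614, under 2 CPM on average in Huh-7, fell there to 0.671, 0.519 and 0.523 CPM after siARD1 against 3.67, 2.36 and 2.76 CPM in control (-2.33, adjusted p = 2.25e-06). It was not called in Hep-3B, at 4.95, 5.17 and 4.16 CPM after siARD1 against 5.08, 5.68 and 4.27 CPM in control (-0.08, adjusted p = 0.77). LINC01419 and LINC02432, the abundant lncRNAs of Huh-7 alone, fell to 56.3 and 54.6% of control (-0.83 and -0.87, adjusted p = 1.03e-09 and 2.71e-10). Further falls named were LINC01770 (-1.81), BHLHE40-AS1 (-1.42), LINC02348 (-1.41), LINC02475 (-1.06), CCDC183-AS1 (-1.04) and SOX9-AS1 (-1.02).

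LINC00511, reported in many tumours, was higher in Huh-7. Its libraries held 25.8, 28.4 and 28.4 CPM after siARD1 against 11.5, 10.3 and 11.6 CPM in control (1.31, SE 0.09, edgeR adjusted p = 5.23e-10). In Hep-3B they held 13.9, 15.98 and 14.03 CPM after siARD1 against 19.3, 16.6 and 19.4 CPM in control (-0.34, adjusted p = 0.0238), a call lost without the first or the third siARD1 or the first or the third control library (adjusted p up to 0.0941, without the first siARD1 library). The difference of -1.63 between the lines passed (adjusted p = 2.85e-09). LINC00857 had 10.8, 14.1 and 9.52 CPM after siARD1 in Huh-7 against 4.45, 4.05 and 5.26 CPM in control (1.32, adjusted p = 7.77e-07), and was not called in Hep-3B (-0.09, adjusted p = 0.661). GOLGA4-AS1 (1.51) and LINC02015 (1.38) rose at 0.833 to 4.51 CPM, and KLRK1-AS1 (0.96), LINC02593 (1.20), LINC02977 (0.89) and LINC01488 (0.87) were the other rises named there beside SNHG4 and SNHG20. Of other named lncRNAs, 28 were tested in each line, with 5 higher and 3 lower in Hep-3B and 10 higher and 5 lower in Huh-7. Over all tested genes, 16.8% were higher and 15.3% lower in Hep-3B, and 21.2 and 18.9% in Huh-7. UCA1 (1.64) and LUCAT1 (2.09) were higher in Huh-7, and CRNDE was higher in Hep-3B (0.70) and lower in Huh-7 (-0.88).

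Across the 383 members tested in both lines, 4 were higher in both: SNHG1, LINC01128, LINC02693 and NUTM2A-AS1. They made up 14.3% of the members higher in Hep-3B and 10.8% of those higher in Huh-7, while over all 13800 genes tested in both lines these shares were 25.3 and 19.5%. Lower in both were 22, or 43.1% of the members lower in Hep-3B and 26.8% of those lower in Huh-7, against 22.9 and 20.02% over all genes. Among them were OLMALINC, LINC00173, LINC01770, LINC02348, PRKAR2A-AS1 and TM4SF1-AS1. The Huh-7 call of TM4SF1-AS1 was lost with DESeq2 (adjusted p = 0.0527) and without the first or second siARD1 or the first or the third control library (edgeR adjusted p up to 0.0956). The direction was opposite in 6, or 1.57% of the members tested in both lines, against 7.75% of all genes: HLA-F-AS1, LINC00342 and LINC00667 were higher in Hep-3B and lower in Huh-7, and LINC00511, LINC01285 and SNHG3 were lower in Hep-3B and higher in Huh-7. All 6 passed the test of the difference. The Huh-7 call of LINC01285 was lost without the third siARD1 library (1.20, edgeR adjusted p = 0.0621) and without the first control library (1.21, adjusted p = 0.0539). LINC00342 had 18.4, 20.4 and 21.9 CPM after siARD1 against 13.9, 14.4 and 11.7 CPM in control in Hep-3B, and 9.55, 10.9 and 8.95 CPM after siARD1 against 15.8, 12.1 and 13.8 CPM in control in Huh-7, with no overlap in either (difference 1.12, edgeR adjusted p = 1.05e-05). Over all members tested for it, the difference passed in 90 of 490, or 18.4%, against 31.4% of all tested genes, with 49 higher in Hep-3B and 41 higher in Huh-7 (16.2 and 15.2% of all tested genes).

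**Figure D4:**
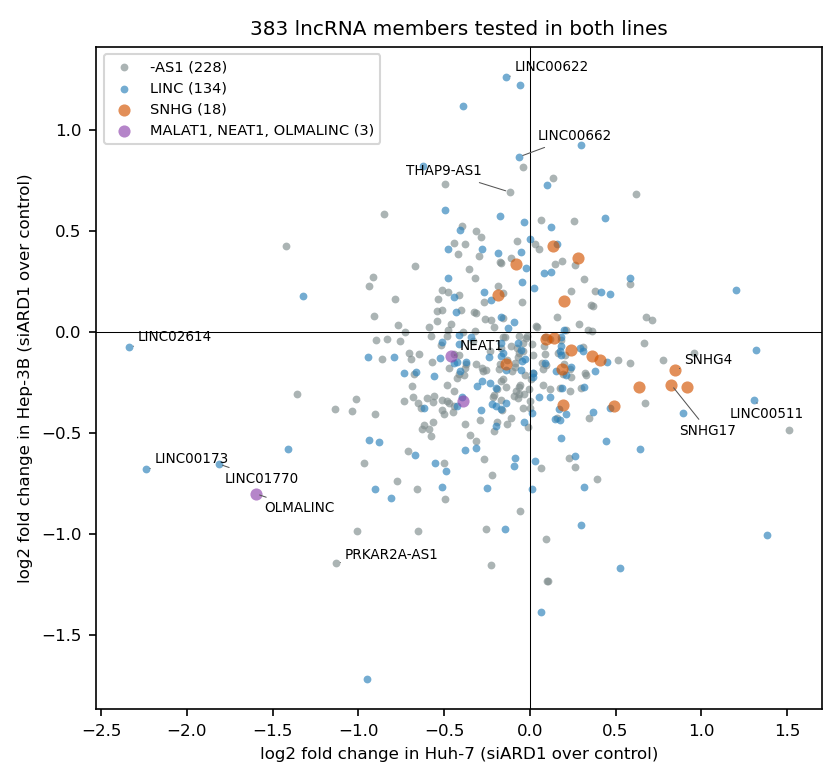
Log2 fold change after siARD1 in Huh-7 (x axis) and Hep-3B (y axis) for the 383 lncRNA members tested in both lines, coloured by name class. OLMALINC (-1.60 and -0.80) and PRKAR2A-AS1 (-1.13 and -1.14) lie in the lower left, LINC00511 and SNHG17 to the right of 0 and below it.

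Each member was then set beside its nearest coding gene, taken by the distance between annotated starts in GENCODE v29. Of 507 members with a position, 179 overlapped that gene on the opposite strand, 53 had a divergent start within 1000 bp, 23 overlapped it on the same strand, 148 lay apart on the same strand and 104 apart on the other strand. The median distance between starts was 14680 bp. Exons of 276 members overlapped an exon on the opposite strand and those of 231 did not. The library kit keeps the strand, but the strand setting of the counting is not given in the sources used here. Reads of a member and of its antisense partner may therefore not be told apart, and values of overlapping pairs are uncertain.

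Called members were then counted by the call of their neighbour. In Hep-3B 89 called members had a tested neighbour, of which 21 (23.6%) were called in the same direction and 14 (15.7%) in the opposite one. For called coding genes and their own nearest coding gene the shares were 25.9 and 10.6%. In Huh-7, 39 of 111 neighbours (35.1%) were called the same way and 13 (11.7%) the opposite way, against 27.9 and 18.2% for coding genes. By direction, 15 of 30 neighbours (50%) of members that rose in Huh-7 were also higher, against 29.5% for coding genes that rose, and 24 of 81 (29.6%) of those that fell were also lower, against 25.7%. In Hep-3B it was 10 of 30 (33.3%) for members that rose, against 26.9%, and 11 of 59 (18.6%) for those that fell, against 24.8%. No test was run on these shares, which share genes between pairs. Without the first siARD1 library the Hep-3B count was 10, and without the second control library the Huh-7 count was 25.

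The pairs in the next paragraphs that lie outside the largest changes were singled out after their values were seen. These have starts within 1 kb. In Huh-7 RHPN1-AS1 (-1.14) and RHPN1 (-1.08), HILPDA-AS1 (-0.73) and HILPDA, a lipid droplet protein gene (-1.02), and H1-10-AS1 (-0.97) and the linker histone gene H1-10 (-0.63) fell together, although the libraries of H1-10-AS1 overlapped between groups and its exons overlap those of H1-10. LINC01770, with its start 288 bp from VWA1, an extracellular matrix gene, on the other strand, had 1.14, 1.25 and 0.785 CPM after siARD1 against 3.55, 3.64 and 3.99 CPM in control in Huh-7 (edgeR adjusted p = 3.14e-06). VWA1 had 79.8, 77.2 and 87.0 CPM after siARD1 against 109.7, 122 and 116.9 CPM in control there (-0.52, adjusted p = 5.59e-07). Both were lower in Hep-3B too (-0.65, adjusted p = 0.0457, and -0.31, adjusted p = 0.00283). The Hep-3B call of LINC01770 was lost with DESeq2 (adjusted p = 0.0881), with limma-voom (0.0561) and without a filter (0.0569), with a log2 fold change of -0.64 to -0.66 in these fits. It was also lost without the first or the third siARD1 or the second or the third control library, and the largest p came without the second control library (-0.51, adjusted p = 0.178).

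Opposite directions were also met at starts within 1 kb. In Huh-7 URB1-AS1 fell (-0.91) while URB1, a ribosome assembly gene 104 bp away, rose (0.66), RTCA-AS1 fell (-0.47) while RTCA rose (0.51), and THAP7-AS1 fell (-0.77) while THAP7 rose (0.46). In Hep-3B CCDC18-AS1 (-0.45) and DR1 (0.32) and H1-10-AS1 (-0.65) and H1-10 (0.35) went opposite ways. The last pair thus differed in Hep-3B and fell together in Huh-7. Among members with starts up to 1 kb away, 12 of 40 neighbours in Huh-7 went the same way and 8 the opposite way (30 and 20%). For coding genes at all distances these shares were 27.9 and 18.2%. In Hep-3B it was 4 and 3 of 22 (18.2 and 13.6%), against 25.9 and 10.6% for coding genes.

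Further pairs of an antisense gene and its partner are given as single cases. In Huh-7 GATA2-AS1 (0.66) rose with GATA2, a blood and endothelial transcription factor (0.83), SPRY4-AS1 (0.68) with SPRY4, an inhibitor of growth factor signalling (0.70), and EGFR-AS1 (0.79) with the growth factor receptor gene EGFR (0.23). NR2F1-AS1 (-0.38) fell with the nuclear receptor gene NR2F1 (-0.52), and ELF3-AS1 (-0.36) with the epithelial factor gene ELF3 (-0.33). BHLHE40-AS1, at 1.29, 1.71 and 0.942 CPM after siARD1 against 3.72, 2.68 and 4.21 CPM in control, fell with BHLHE40, a circadian and hypoxia-responsive repressor (-0.30, edgeR adjusted p = 0.000185). In Hep-3B PRKCQ-AS1 (0.48) rose with the kinase gene PRKCQ (0.99). By contrast SOX9-AS1 fell in Huh-7 while SOX9 (-0.09, adjusted p = 0.248) was not called, and ID2-AS1 fell there (-0.91) beside an uncalled ID2 (-0.14, adjusted p = 0.0677).

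Members that lie apart from their neighbour gave further pairs. LINC02593 had 20.1, 21.3 and 17.01 CPM after siARD1 against 9.42, 6.78 and 9.34 CPM in control in Huh-7 (edgeR adjusted p = 1.81e-07). SAMD11, 2912 bp from it by start, had 43.3, 42.3 and 43.6 CPM after siARD1 against 27.5, 23.6 and 25.2 CPM in control (0.76, adjusted p = 6.57e-08), and LINC01128 (0.44), 98790 bp from SAMD11 on its strand, rose as well. LINC02977 (0.89) and SUSD1 (0.78), and LINC01488 (0.87) and the cyclin D1 gene CCND1 (0.34), rose together in Huh-7. In Hep-3B LINC00622 rose with the zinc finger gene ZNF697, which had 25.0, 24.6 and 23.7 CPM after siARD1 against 13.9, 14.4 and 13.4 CPM in control (0.81, adjusted p = 1.18e-05). LINC00654 fell there (-0.97) while GPCPD1, which splits glycerophosphocholine, rose (0.81, adjusted p = 2.1e-06), and LINC00662 rose while UQCRFS1, a subunit gene of respiratory complex III whose start is 1419601 bp away, fell (-0.44). In Hep-3B, members whose neighbour's start was over 100 kb away went the same way in 3 and the opposite way in 8 of 23 pairs, and those at 1 to 100 kb in 14 and 3 of 44. In Huh-7 the counts were 7 and 3 of 21 over 100 kb away, and 20 and 2 of 50 at 1 to 100 kb. For coding genes at all distances the shares were 25.9% the same way and 10.6% opposite in Hep-3B. In Huh-7 they were 27.9 and 18.2%. Coding pairs were not split by distance and no test was run, so these counts do not show that agreement depends on distance.

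**Figure D5:**
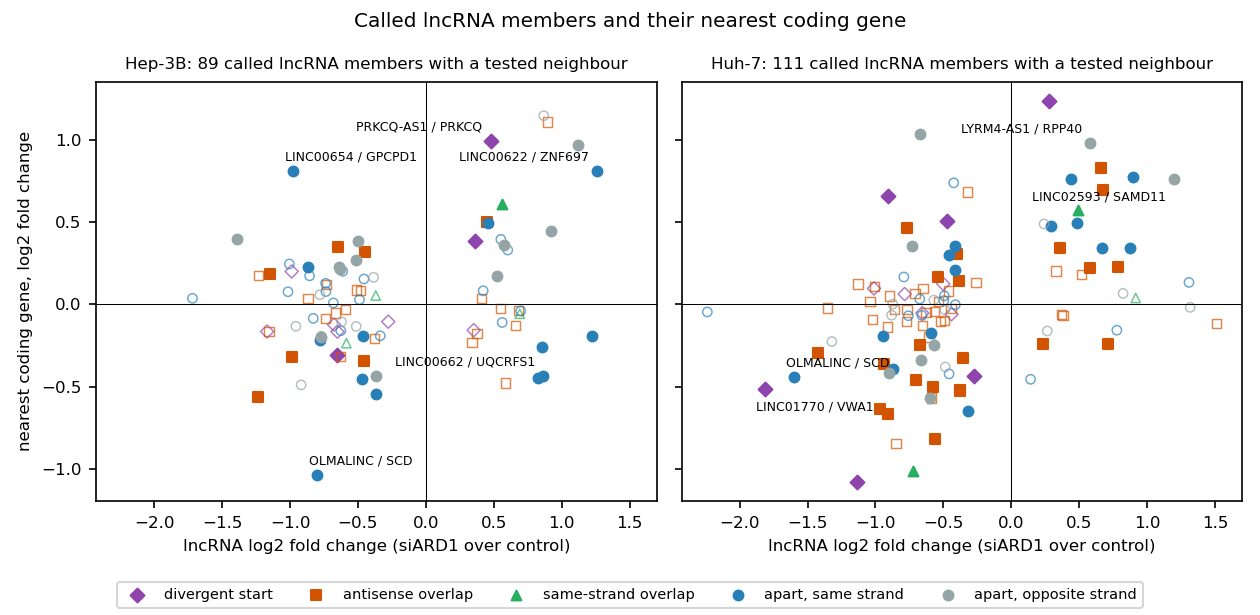
Log2 fold change after siARD1 of called lncRNA members (x axis) and of their nearest coding gene (y axis) in each line, by arrangement of the pair; filled symbols mark neighbours that were called. OLMALINC and SCD lie in the lower left in both lines, and in Huh-7 most filled symbols right of 0 lie above it (15 called higher, 2 called lower).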

How the data were processed

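RNA was isolated with Trizol, cleared of ribosomal RNA and turned into strand-keeping libraries, per the labels' protocols. Reads were trimmed with cutadapt 4.6 and aligned with STAR 2.7.11b to GRCh38, per the submitters' processing notes, while for the counting step the tool, annotation and use of strand are not stated there. The authors deposited raw counts per Ensembl gene, 1 table per cell line. The members and gene lists were chosen with earlier results of these data known. Genes were filtered by edgeR 4.0.16 (minimum count 10, minimum total 15), scaled by TMM and tested with the robust quasi-likelihood test, separately in each line (3 siARD1 against 3 control libraries) and in 1 fit of all 4 groups for the difference between lines, in R 4.3.3. P-values were adjusted by Benjamini and Hochberg over all tested genes, with a threshold of 0.05. SE is the size of the log2 fold change divided by the square root of F. Named members are MALAT1, NEAT1, OLMALINC, every SNHG gene, in each line the 10 called members that rose most and the 10 that fell most, at 2 CPM or more, up to 8 differences between lines each way, and the 10 most abundant per line; some of these are not reported here. Positions, types and neighbours come from GENCODE 29. DESeq2 1.42.0 and limma 3.58.1 were among the alternatives. The procedure was tested on simulated data with a set spread. Of planted log2 changes of 0.3, 8% were recovered in Hep-3B and 6% in Huh-7. At 0.5 the shares were 56 and 60%, and at 1 they were 94 and 100%. For the difference between the lines 53.7% were recovered. A gene that was not called can thus hold a small change. No pair of libraries agreed within sampling noise. In Hep-3B, same-numbered libraries had correlations of deviations from 0.0315 to 0.0845, and other pairs from -0.073 to -0.00799. In Huh-7 these ran from -0.0869 to 0.0775 and from -0.142 to 0.149. Whether the numbers pair the libraries is not settled, and the main fits used no pairing.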

Additional observations from a re-analysis of the deposited data

Results flagged for a closer look

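The change after siARD1 differed between the lines for the members below, among those named, by the interaction term of edgeR's quasi-likelihood fit of all 4 groups. Each value is the log2 fold change in Hep-3B less that in Huh-7, followed by its adjusted p. The value was higher in Hep-3B for LINC02614 (2.27, 7.71e-06), BHLHE40-AS1 (1.86, 0.000348), LINC00173 (1.57, 0.000154), LINC01239 (1.46, 0.00335), LINC00622 (1.42, 0.00376), ID2-AS1 (1.20, 9.49e-05), LINC01770 (1.18, 0.0103), LINC00342 (1.12, 1.05e-05), LINC00662 (0.95, 6.03e-07), LINC02348 (0.85, 0.0177), THAP9-AS1 (0.82, 2.51e-05), OLMALINC (0.81, 1.11e-05), LINC00667 (0.71, 1.83e-05), CCDC183-AS1 (0.66, 0.0143), LINC00888 (0.64, 0.0086) and OIP5-AS1 (0.43, 0.0021). It was higher in Huh-7 for LINC01285 (-2.37, 0.000103), GOLGA4-AS1 (-1.99, 0.00051), LINC00511 (-1.63, 2.85e-09), LINC00857 (-1.39, 1.72e-05), LINC02977 (-1.28, 4.72e-05), LINC01503 (-1.24, 0.00392), SNHG20 (-1.17, 0.00419), SNHG17 (-1.07, 5.11e-06), KLRK1-AS1 (-1.05, 0.00198), SNHG4 (-1.02, 9.4e-05), LINC02593 (-0.98, 0.00223), SNHG15 (-0.89, 2.92e-05), SNHG3 (-0.84, 6.36e-05), LINC00654 (-0.81, 0.000454), LINC00963 (-0.35, 0.00465), SNHG7 (-0.35, 0.0168) and SNHG16 (-0.31, 0.0236). The call was lost without 1 library for CCDC183-AS1 (Hep-3B control 3), SNHG7 (Huh-7 control 2), LINC02348 and SNHG16. NAA10 itself fell further in Huh-7 (1.995, 1.56e-05 by the same test), and causes were not tested.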

How the results depend on the processing

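The members' counts kept within 1.5 times of their value under the other scaling factors and count filters, DESeq2 (34 higher and 53 lower in Hep-3B, 36 and 83 in Huh-7) and limma-voom. With a replicate block there were 45 higher and 73 lower in Hep-3B, 40 and 99 in Huh-7, and 94 differences between the lines; among named members the block ended the call of SNHG7 in Huh-7 (adjusted p = 0.0612). With members at 5 CPM or more, by construction fewer, 39 were lower in Hep-3B and 62 in Huh-7, and 22 Huh-7 neighbours went the same way. Members with no exon overlap on the opposite strand, also fewer, gave 20 higher and 37 lower in Hep-3B and 18 and 41 in Huh-7. Leaving out 1 library gave 25 to 36 higher and 49 to 58 lower members in Hep-3B, with 25 without the first and without the third siARD1 library, 32 to 39 and 84 to 94 in Huh-7, and 75 to 95 differences. Neighbours the same way ranged from 10 to 23 in Hep-3B and 25 to 35 in Huh-7. Over all genes 3695 to 4922 were called in Hep-3B and 5249 to 6137 in Huh-7. Uncalled values that changed sign when 1 library was left out, with their log2 range over such fits, were LINC00261 in Huh-7 (-0.093 to 0.035), LINC00662 in Huh-7 (-0.127 to 0.025), LINC00857 in Hep-3B (-0.161 to 0.004), LINC02614 in Hep-3B (-0.177 to 0.020), NEAT1 in Hep-3B (-0.264 to 0.028), SNHG11 in Hep-3B (-0.154 to 0.107), SNHG11 in Huh-7 (-0.028 to 0.205), SNHG12 in Hep-3B (-0.193 to 0.007), SNHG29 in Hep-3B (-0.087 to 0.023) and SNHG6 in Hep-3B (-0.290 to 0.132), and the cause was not tested.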
